A study of Homo sapiens with 4 samples.

Results

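Monocytes carry on their surface a set of receptors that respond to growth factors, take up bacteria and lipids and bind antibody-coated particles. The genes for 10 of these receptors are described here (CD93, CSF1R, CSF2RA, CD14, CD33, ITGAM, ITGAX, FCGR1A, FCGR2A and CD36), picked by name. The 4 deposited peak lists together held 18576 gene symbols. A peak was taken as belonging to one of the 10 genes when a list gave its symbol beside it. 9 of the 10 occurred in at least 1 list, and CSF2RA occurred in none.

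The study mapped WDR5, a subunit shared by the MLL family of histone methyltransferase complexes, and H3K4me3, the trimethylation of histone H3 at lysine 4, by chromatin immunoprecipitation and sequencing. Both were mapped in RS4;11, a human cell line from B-precursor acute lymphoblastic leukemia with an MLL-AF4 fusion, and in THP-1, a human monocytic cell line from acute myeloid leukemia with an MLL-AF9 fusion. Each of the 4 combinations of antibody and line is 1 sample, and each line is a single line standing for its leukemia. The deposited labels give the THP-1 WDR5 sample as lymphoblastic and the RS4;11 H3K4me3 sample as myeloid, against the origin of the lines, so samples are named here by line. There are no replicates, and no difference below has a test. The lists give positions only, with no peak height and no read depth.

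H3K4me3 sits in a peak over the start of genes that are transcribed or ready to be, and is used as a mark of an active or poised promoter. Colony stimulating factor receptors drive the growth and survival of the monocyte lineage, CD14 and CD36 bind lipopolysaccharide and oxidized lipids, the integrin chains ITGAM and ITGAX pair with ITGB2 to form complement receptors, FCGR1A and FCGR2A bind the constant part of IgG, CD33 is an inhibitory sialic acid binding lectin, and CD93 is a C-type lectin of monocytes, endothelium and early progenitors. PU.1, an ETS factor of myeloid and B cells, is known to bind purine-rich sites with the core GAGGAA in many of these promoters.

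The promoter sequences show what most of these starts have in common. RefSeq windows running from 250 bases before to 50 bases after a start were taken from build GRCh38.p14. They were placed in GRCh37, the assembly whose coordinates are those of hg19. Each was found once on its own chromosome in the matching orientation, and the rest of the genome was not searched. Windows were available for 8 of the 10 genes, as 14 windows. CD93 and ITGAX had none. Stretches upstream of the starts of FCGR1A and FCGR2A are shown because both hold a shared run near their end, with shorter ones from CSF1R, CD33, CD14 and ITGAM that hold the same core. Capitals mark GAGGAA, or TTCCTC where it lies on the other strand, and each sequence reads 5′ to 3′ in the direction of transcription (plus strand, except CSF1R and CD14).
FCGR1A, chr1:149754127-149754226, plus strand: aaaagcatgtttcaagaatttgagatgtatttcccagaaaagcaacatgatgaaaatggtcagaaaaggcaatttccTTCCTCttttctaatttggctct
FCGR2A, chr1:161475120-161475219, plus strand: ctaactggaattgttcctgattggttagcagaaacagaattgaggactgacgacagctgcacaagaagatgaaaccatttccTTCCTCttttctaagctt
CD33, chr19:51728306-51728335, plus strand: agtccttcccctccactcccTTCCTCtttt
CSF1R, chr5:149466123-149466152, minus strand: gatcagcccaaggagGAGGAAGAGGAAaac
CD14, chr5:140012848-140012877, minus strand: gaaaggaagggggctggctcgGAGGAAgag
ITGAM, chr16:31271166-31271195, plus strand: gggGAGGAAgggtgggcaggctgtgggcag

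FCGR1A and FCGR2A shared a run of 20 bases, atttccttcctcttttctaa, just before their starts. A run of 12 bases inside it, ccttcctctttt, also lay next to the start of CD33, and 14 of 34961 RefSeq windows (0.040%) held it on either strand. GAGGAA was found on either strand in 11 of the 14 windows, against 27.9% of all windows. CD36 supplied 6 of the 14 windows, and a pair of them overlap and hold the same match, so its 4 windows with the core had 3 distinct positions. By gene, each of the 8 had the core in at least 1 window, against 31.8% of the 27195 genes in the RefSeq table, and genes differ in how many windows they have. This core and the shared run were chosen after the sequences were seen. The PU.1-type motif set before the search was the longer GAGGAAGT, which occurred in 0 of the 14 windows (2.59% of all windows). CCGGAAGT (4.14%), TTGCNNAA (10.4%) and CACGTG (7.27%) also occurred in 0 of the 14, searched on both strands. Binding of PU.1 was not measured. The TATA box core TATAAA occurred in 3, at FCGR2A and CD36, against 11.5% of all windows. Any match to GAGGAAGT is also one to the shorter core.

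The 14 windows were also poor in CpG. Their ratio of observed to expected CpG ran from 0.0807 to 0.350 with a median of 0.162, while the median of all windows was 0.580. Only 36.9% of all windows lay at or below 0.350, the highest of the 14. This bears on how the peak counts are read. Among the 6152 protein-coding genes whose start had a ratio below 0.4 (computed over windows of the same length in GRCh37), 1096 (17.8%) had an H3K4me3 peak at the start in RS4;11 and 1229 in THP-1. Among the other 13993 genes the shares were 62.9% and 70.9%. The cutoff of 0.4 was set after the values of the 14 windows were known.

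A gene was counted as marked at its start where any base of a peak fell between 2000 bp before and 500 bp after the 5′ end that GENCODE gives the gene. In RS4;11, 4 of the 10 genes were marked (CD93, CD14, CD33 and FCGR2A), against 49.2% of 20145 protein-coding genes. In THP-1, 5 of 10 were marked (CD14, CD33, ITGAM, ITGAX and FCGR2A), against 55.3%. The 3 genes marked in both lines stood beside a background of 43.4%, the 1 marked in RS4;11 only beside 5.72%, the 2 marked in THP-1 only beside 11.9%, and the 4 marked in neither (CSF1R, CSF2RA, FCGR1A and CD36) beside 38.9%. These counts were close to the shares of all protein-coding genes. The gene marked in RS4;11 only was CD93, which was included with that mark known. Of the 8 genes with a promoter window, all CpG-poor in that window, 3 were marked in RS4;11 and 4 in THP-1. These stand beside the 17.8% (RS4;11) and the 1229 of 6152 (THP-1) given above for genes with CpG-poor starts. The measures are not alike, since the background took CpG and mark at the same 5′ end. The CD36 windows lay 232632 to 276871 bp past the 5′ end used for its mark, and the CD14 window 525 bp past.

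**Figure D1:**
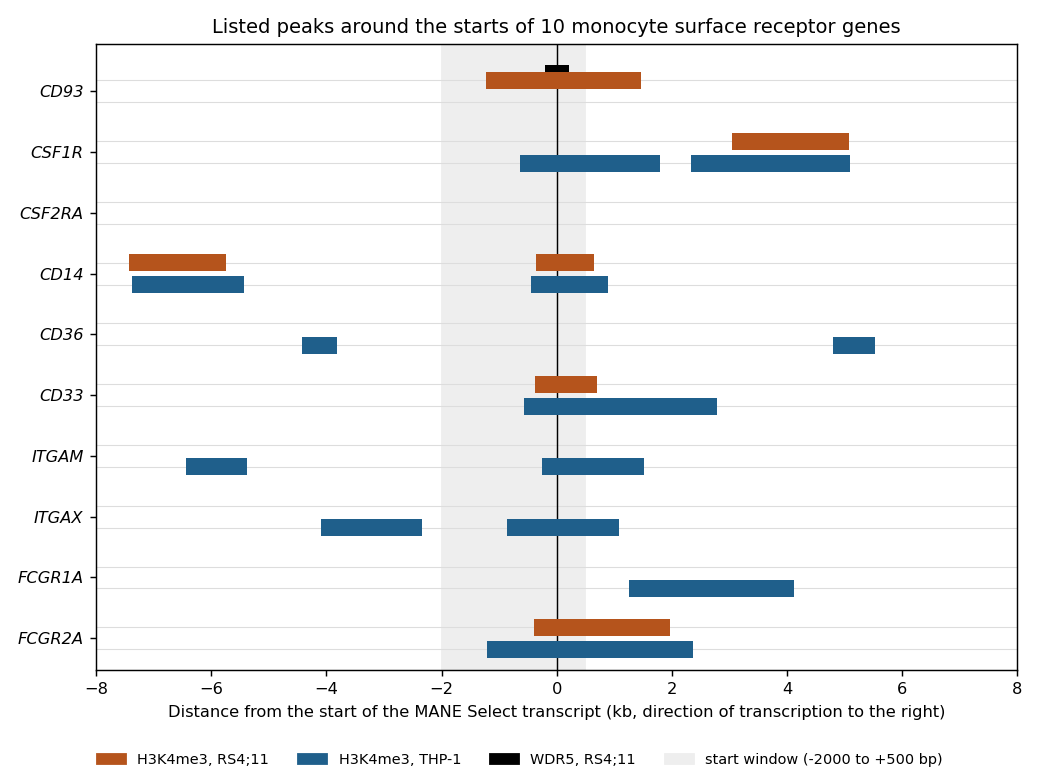
Listed peaks within 8 kb of the MANE Select transcript start of each of the 10 genes, with distance in kb on the horizontal axis and 1 row for RS4;11 (upper) and 1 for THP-1 (lower) per gene; colored bars are H3K4me3 peaks, the black bar is the WDR5 peak and the gray band reaches from 2000 bp before to 500 bp after the start. CD93 has its peaks in RS4;11 only, CSF1R, ITGAM and ITGAX have a peak at this start in THP-1 only, and CSF2RA has none in either.

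CD93 was the only gene of the 10 with a WDR5 peak, and the only one marked at the start in RS4;11 and not in THP-1. It was included as a target named in the study and known to be marked in RS4;11, so its peaks are described only. Its H3K4me3 peak in RS4;11 covered chr20:23065492-23068194 (2703 bp), from 1233 bp upstream to 1469 bp downstream of the start, over the 5′ UTR and coding sequence of this gene. The WDR5 peak, chr20:23066747-23067170 (424 bp), lay inside it with its center 3 bp from the start. In THP-1 no peak of either kind was listed, and the nearest H3K4me3 peak was 263 kb from the start. By quantitative PCR of immunoprecipitated DNA, the study reported WDR5 and H3K4me3 at the CD93 promoter in Nalm6 and primary B-ALL cells. It reported both in U937 and primary AML cells too, and lower CD93 expression after WDR5 knockdown in Nalm6 and U937. The difference in listed peaks is therefore one between these lines, and is not shown for the leukemia types. The 31-base words of both RS4;11 peaks occurred once each in GRCh37.

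A WDR5 peak at the start was itself rare, with 0.223% of protein-coding genes (45) in RS4;11 and 0.0745% (15) in THP-1. Of the 45 genes in RS4;11, 31 also had H3K4me3 at the start in that line. CD93 was one of 4 among the 45 that had H3K4me3 in RS4;11 only, while 27 had it in both lines. For the other 9 genes of the set, the nearest RS4;11 WDR5 peak lay between 367 kb (FCGR1A) and 4610 kb (CD36) from the start. In THP-1 no WDR5 peak was listed for any of the 10, and the nearest to a start was 177 kb away, at CD33.

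Width gives a scale for the absence of CD93 in THP-1. No deposited H3K4me3 peak reached 4500 bp, and whether wider ones were left out is not given in the sources used here. Of the 4280 genes with a widest start peak of 2000 to 3000 bp in RS4;11, as CD93 had, 94.3% were also marked in THP-1. Of the 488 genes with a peak of 4000 bp or more the share was 64.1%. These shares were not split by CpG content. Of 20 housekeeping genes, 12 were marked in RS4;11 and 11 in THP-1, and 8 were marked in neither, ACTB, GAPDH and B2M among them. Whether peaks wider than those listed account for these, or for any unlisted receptor, was not tested, and an unlisted start is not shown to be unmarked.

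**Figure D2:**
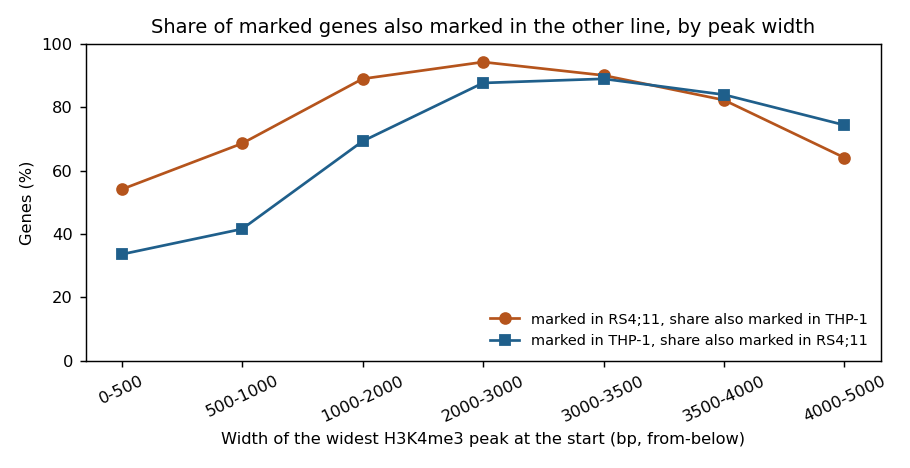
Share of genes marked at the start in one line that were also marked in the other (vertical axis, percent), by the width in bp of the widest H3K4me3 peak at the start (horizontal axis); circles are genes marked in RS4;11 and squares genes marked in THP-1. The share is highest at 2000 to 3500 bp and lower at both ends, and is 94.3% for the width class that holds CD93.

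CSF1R, the receptor for CSF1 and IL-34, had no peak at the 5′ end of the annotated gene (chr5:149432854-149492935, minus strand) in either line. The start used by the MANE Select transcript lies 26818 bp further in, at position 149466117. There the lines differed. In THP-1 a peak of 2418 bp, chr5:149464331-149466748, ran from 631 bp upstream to 1786 bp downstream of this start, over the 5′ UTR and coding sequence, and the GAGGAA repeat shown above falls inside it. In RS4;11 no peak touched that start.

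Both lines had a peak in the intron beyond. It was 2764 bp in THP-1, beginning 2329 bp downstream of the MANE Select start, and 2028 bp in RS4;11, beginning 3046 bp downstream. All 2028 bp of the RS4;11 peak lay inside the THP-1 peak. A further peak of 3713 bp, chr5:149443767-149447479, was listed in RS4;11 only, and the start windows it touched belong to a pair of shorter transcripts, CSF1R-206 and CSF1R-208. A peak of 474 bp upstream of the gene, which the file also joined to PDGFRB, was listed in THP-1 only. CSF1R thus counted as marked in neither line by its 5′ end, in THP-1 only by the MANE Select start and in both by any transcript start.

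CSF2RA, the ligand-binding chain of the GM-CSF receptor, lies at chrX:1387693-1429274 in the pseudoautosomal region that X and Y share. Across chrX:192989-2659350 (2.47 Mb, from the first to the last gene with a copy on Y), with 15 protein-coding genes, 0 peaks were listed in any of the 4 files. The rest of X was covered, and the whole chromosome held 646 H3K4me3 peaks in RS4;11 and 737 in THP-1. IL3RA, the alpha chain of the IL-3 receptor, lies in the same region and was also unlisted. The authors kept reads with a single alignment only, and whether their build masked the Y copy is not given in the sources used here. For CSF2RA the lists give no information on either line.

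**Figure D3:**
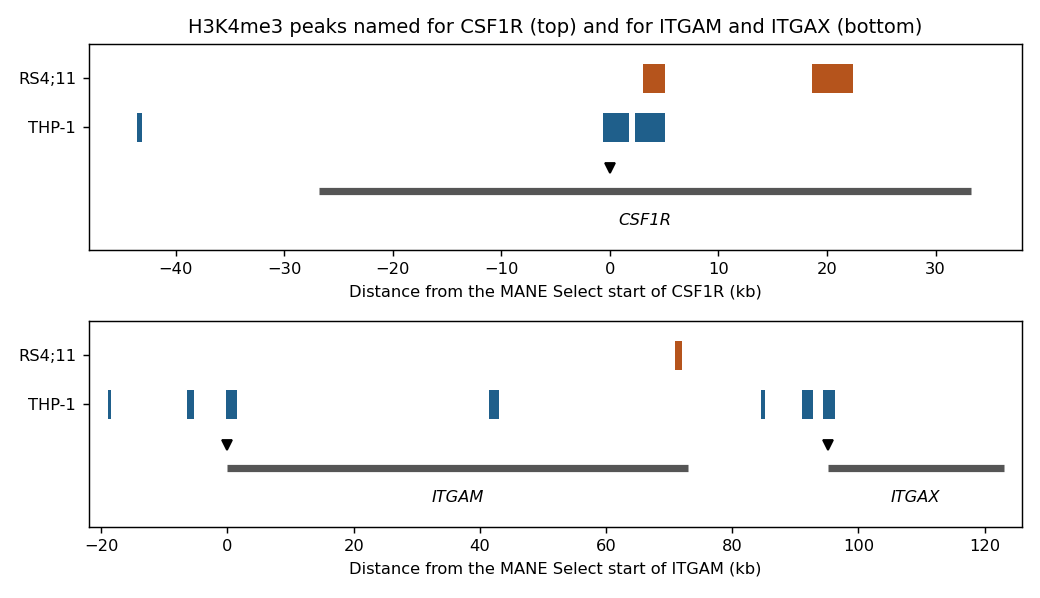
H3K4me3 peaks that the files name for CSF1R (top) and for ITGAM and ITGAX (bottom), drawn to scale as distance in kb from the MANE Select start of CSF1R and of ITGAM; gray lines are the annotated genes and triangles the MANE Select starts. At CSF1R both lines have the intronic peak that begins 2329 bp (THP-1) and 3046 bp (RS4;11) past the start, while the peak on the start is in THP-1 only, and at ITGAM and ITGAX the only RS4;11 peak is the one of 1094 bp at the 3′ end of ITGAM.

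ITGAM (CD11b) and ITGAX (CD11c), neighboring genes on chromosome 16 for integrin alpha chains, were marked at their starts in THP-1 and not in RS4;11. At ITGAM (chr16:31271288-31344213) the THP-1 start peak was 1763 bp, from 242 bp upstream to 1520 bp downstream. THP-1 had 3 more peaks assigned to ITGAM alone or to ITGAM and TRIM72, of 525 and 1059 bp upstream and 1466 bp in an intron. At ITGAX (chr16:31366455-31394320) the start peak was 1935 bp, from 815 bp upstream to 1119 bp downstream. Between the genes THP-1 had peaks of 642 and 1746 bp, which the file gave to both.

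RS4;11 had 1 peak in this stretch. It was 1094 bp, chr16:31342251-31343344, over the last coding sequence and 3′ UTR of ITGAM, 23.1 kb from the start of ITGAX, and did not touch any THP-1 peak. By this peak alone ITGAM counted among the genes named in RS4;11, although the nearest peak to its start was 44.4 kb away. None of the 7 distinct THP-1 peaks of ITGAM and ITGAX overlapped an RS4;11 peak. Of the 3070 genes with a THP-1 start peak of 1000 to 2000 bp, the class of ITGAM and ITGAX, 69.3% were also marked in RS4;11. This share was not split by CpG content.

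CD14, the co-receptor for lipopolysaccharide, was marked in both lines. Its peak was 1004 bp in RS4;11 (chr5:140012119-140013122) and 1335 bp in THP-1 (chr5:140011874-140013208). The RS4;11 peak lay wholly inside the THP-1 peak. From the MANE Select start they ran from 362 bp upstream to 641 bp downstream and from 448 bp upstream to 886 bp downstream. The other 3 peaks that each file named for CD14 were present in both lines, at the starts of TMCO6 and NDUFA2 and about 21 kb beyond the 5′ end on the downstream side, so CD14 had the same 4 peaks in RS4;11 and THP-1.

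CD36, a scavenger receptor for lipids and thrombospondin, had no peak at the start of any transcript in either line. Its annotated 5′ end (chr7:79998891-80308593) lies 269067 bp before the MANE Select start. RS4;11 had 1 named peak of 611 bp, 49320 to 48710 bp upstream of the MANE Select start. THP-1 had 3, of 608, 746 and 738 bp. The first ended 3821 bp upstream and the second began 4791 bp downstream of the MANE Select start, and the third lay beyond the 3′ end of the gene. None of these peaks overlapped a peak of the other line. RS4;11 had 1 more peak inside the annotated gene, chr7:80127533-80128210, which the file did not name for CD36.

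CD33 was marked in both lines, and of the 3 such genes it differed most in width. The peak was 1075 bp in RS4;11, from 353 bp upstream to 721 bp downstream of the start (chr19:51727967-51729041), and 3357 bp in THP-1, from 547 bp upstream to 2809 bp downstream (chr19:51727773-51731129). The THP-1 width was 3.12 times the RS4;11 width (1.64 on the log2 scale), and 99.3% of the 8750 genes marked in both lines had a smaller ratio. Over those genes the median ratio was 0.985. Of genes with a CpG ratio below 0.4 at the start, 12.7% were marked in both lines, against 57.0% of the others. The promoter window of CD33 was CpG-poor, and ranks of the width ratio, here and below, were not taken among CpG-poor genes alone. The extra width lay mostly on the gene side. A peak of 675 bp in RS4;11 and 1047 bp in THP-1, at the pseudogene SIGLEC22P, was also named for CD33, and 33.1% of the 31-base words of the RS4;11 start peak and 14.5% of those of the THP-1 peak occurred more than once in GRCh37.

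FCGR2A, the low-affinity IgG receptor CD32A, was marked in both lines, with a peak of 2358 bp in RS4;11 (chr1:161474856-161477213) and 3590 bp in THP-1 (chr1:161474031-161477620). The ratio was 1.52, above that of 94.5% of genes. CD14 had a ratio of 1.33, above 90.3%. All 3 genes marked in both lines therefore had the wider peak in THP-1, by between 1.33 and 3.12 times, and each RS4;11 peak lay inside the THP-1 peak. Within RS4;11 the CD14 and CD33 peaks were among the narrow ones, with 5.38% and 5.97% of marked genes narrower. The other peaks named for FCGR2A lay at or beyond HSPA6, a heat shock gene at its 3′ end, and one of them, of 2634 bp, was listed in RS4;11 only.

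**Figure D4:**
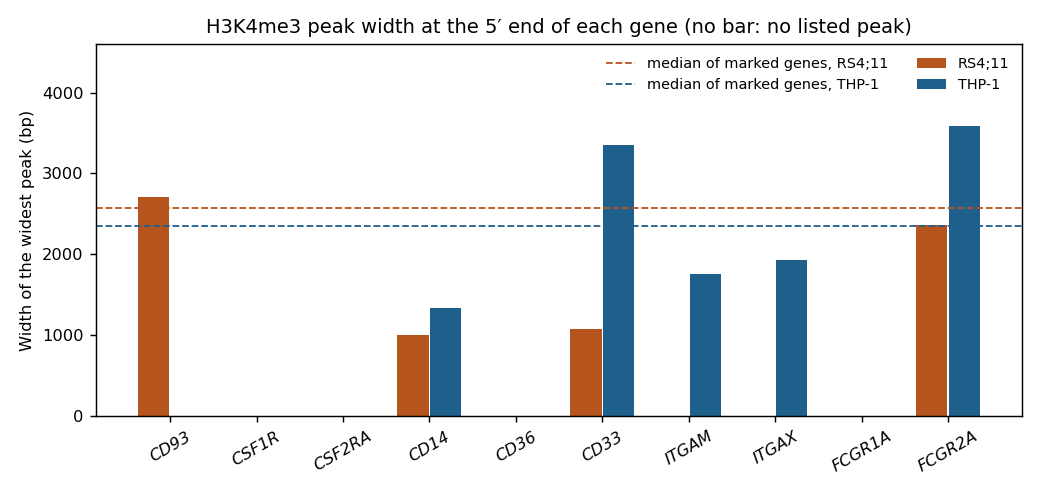
Width in bp (vertical axis) of the widest H3K4me3 peak in the start window of the 5′ end of each of the 10 genes, with 1 bar for RS4;11 and 1 for THP-1, and the median over all marked genes of each line as a dashed line. CD14, CD33 and FCGR2A are wider in THP-1, with CD33 at 1075 and 3357 bp, and genes without a bar have no listed peak in the window.

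FCGR1A, the high-affinity IgG receptor CD64, had no peak in its start window in either line. In THP-1 a peak of 2877 bp, chr1:149755498-149758374, lay just beyond the window, from 1271 to 4147 bp downstream of the start, over coding exons and introns. RS4;11 had no peak there, and its nearest was 9.87 kb from the start. A smaller peak past the 3′ end, of 793 bp in RS4;11 and 607 bp in THP-1, was shared by the lines, and the remaining ones lay at the histone genes H3C13 (RS4;11) and H2BC18 (THP-1). FCGR1A has near-identical copies elsewhere on its chromosome. Of the 31-base words within 2000 bp of its start 86.7% occurred more than once in GRCh37, against 0.0252% (CSF1R) to 30.4% (CSF2RA) for the other 9 genes, and of those in the THP-1 peak 83.3%. With reads of a single alignment kept, peaks at FCGR1A are uncertain in both lines.

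Naming by distance made the set look more alike in the lines than the start windows did. The files join a peak to every transcript within 20 kb, and by name 8 of the 10 genes had H3K4me3 in RS4;11 and 8 in THP-1, against 65.0% and 69.5% of protein-coding symbols. The gene not named was ITGAX in RS4;11 and CD93 in THP-1, besides CSF2RA. In RS4;11 the set had 17 distinct peaks, and for 9 of the 17 pairings of a gene with a peak the closest protein-coding 5′ end was that of the gene itself. In THP-1 it had 26 distinct peaks in 28 pairings, and 17 were closest to the gene itself. 11 pairings in each line had an overlapping peak in the other.

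Within 5 kb of the 5′ ends, H3K4me3 peaks covered 7140 bp over the 10 genes in RS4;11 and 16691 bp in THP-1. In RS4;11 the covered genes were CD14 (1004 bp), CD33 (1075 bp), FCGR2A (2358 bp) and CD93 (2703 bp). In THP-1 they were CD14 (1423 bp), ITGAM (1763 bp), FCGR1A (2877 bp), CD33 (3357 bp), FCGR2A (3590 bp) and ITGAX (3681 bp). CD93 alone had more in RS4;11. Within 2000 bp of the 5′ ends the sums were 7140 bp in RS4;11 and 11501 bp in THP-1. The THP-1 sums include FCGR1A, where peaks are uncertain. CSF1R adds nothing by its 5′ end, but within 5 kb of its MANE Select start peaks covered 1955 bp in RS4;11 and 5090 bp in THP-1.

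The chains and signaling partners of these receptors were mostly marked in both lines. Of 20 ligands, co-receptors and signaling genes, 13 were marked in both, 1 in RS4;11 only and 6 in neither. The one was JAK2, the kinase of the GM-CSF receptor, with a peak of 3835 bp. Over all protein-coding genes the shares were 43.4% in both lines, 5.72% in RS4;11 only, 11.9% in THP-1 only and 38.9% in neither. Of the 13 marked in both, 8 had the wider peak in THP-1 and 5 in RS4;11. The 5 include STAT5A and STAT5B, both at 2010 bp in RS4;11 and 1626 bp in THP-1, which may be a single peak counted for both genes. They also include PTPN11, whose widths were nearly equal at 2845 and 2837 bp. Those named next were chosen after their values were seen. Wider in THP-1 were ITGB2, the beta chain of ITGAM and ITGAX, at 931 bp in RS4;11 and 2250 bp in THP-1, FCER1G, the signaling chain of FCGR1A, at 539 and 4125 bp, and TLR4, which signals with CD14, at 1667 and 3594 bp. CSF2RB, the shared beta chain that pairs with CSF2RA, had 1427 and 1804 bp, and MMRN2, a ligand of CD93, had 1430 and 1939 bp. Wider in RS4;11 were LY96, which binds lipopolysaccharide with TLR4, at 2150 and 1191 bp, and PTPN6, a phosphatase recruited by inhibitory receptors such as CD33, at 2996 and 1956 bp.

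Of 30 other myeloid surface genes, which include CSF2RB, ITGB2 and FCER1G again, 7 were marked in both lines, 8 in THP-1 only, 3 in RS4;11 only and 12 in neither. Among them CSF3R (the G-CSF receptor, 1837 bp), FCAR (the IgA receptor, 1283 bp), CD86 (693 bp) and the chemoattractant receptors CCR2 (3784 bp), CX3CR1 (3454 bp) and FPR1 (861 bp) were marked in THP-1 only. For CCR2 and CX3CR1 this rests on the window, since RS4;11 peaks covered 1696 and 1175 bp within 5 kb of their starts. SIRPA (1726 bp) and LILRB1 (1463 bp) were marked in RS4;11 only, as CD93 was. The shares of all protein-coding genes were 43.4% in both lines, 11.9% in THP-1 only, 5.72% in RS4;11 only and 38.9% in neither.

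Of 15 annotated genes in a B-lineage surface list, 3 were marked in both lines, 4 in RS4;11 only, 1 in THP-1 only and 7 in neither. Beside these stand 43.4%, 5.72%, 11.9% and 38.9% of all protein-coding genes, in the same order. The list was not restricted to genes particular to B cells, and the 3 marked in both were CD72, CD38 and CD40. CD22 (2031 bp) and the B cell receptor chains CD79A (2816 bp) and CD79B (2921 bp) were among those marked in RS4;11 only, and FLT3 (1949 bp) in THP-1 only. The count per line turned with the choice of start. It was 7 in RS4;11 and 4 in THP-1 as defined here, but 7 and 9 with 5000 bp to each side of the start, 8 and 10 with the start of any transcript, and 6 and 9 with the MANE Select start. Of 20 genes of other tissues, 1 was marked in both lines, 0 in RS4;11 only, 6 in THP-1 only and 13 in neither. The shares over all genes were those given for the B-lineage list. APOA2, NEUROD1 and PAX6 were among the 6. For APOA2 this rests on the window, since RS4;11 peaks covered 1297 bp within 5 kb of its start. THP-1 thus also had more marked starts in a list with no known role in monocytes, and its part in the counts for the receptors was not tested.

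**Figure D5:**
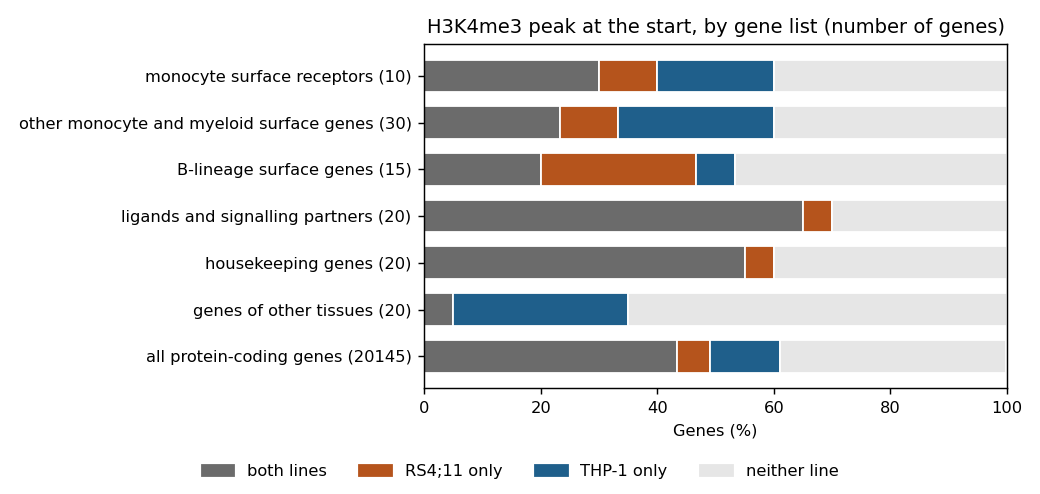
Share of genes (horizontal axis, percent) with an H3K4me3 peak at the start in both lines, in RS4;11 only, in THP-1 only or in neither, for the 10 receptor genes, 5 other gene lists and all protein-coding genes, with the number of genes in brackets. The receptor genes have 3 in both, 1 in RS4;11 only and 2 in THP-1 only, and the B-lineage list has 4 in RS4;11 only and 1 in THP-1 only, with per-line counts of 7 and 4 that become 7 and 9 (RS4;11 and THP-1) with 5000 bp to each side of the start.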

How the data were processed

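Chromatin was sonicated for WDR5 and digested with MNase for H3K4me3 per the study's methods, while the labels give sonication for all samples. The authors aligned reads to hg19 with Eland, allowing up to 2 mismatches and keeping single alignments, called peaks with MACS at default settings and joined each peak to all RefSeq transcripts within 20 kb. The submitters' processing notes also name CASAVA 1.7 and 1.8.2, with no role stated. The MACS version, any input control and the read depth are not given in the sources used here. The deposited lists hold peak positions, RefSeq names, symbols and position flags, and no heights, p-values or counts, so precision per peak is unknown. They held 24212 (RS4;11) and 26523 (THP-1) distinct H3K4me3 peaks and 703 and 225 WDR5 peaks.

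Peaks were set against GENCODE release 44 lifted to GRCh37 with Python 3.11.15 and numpy 2.4.6. An overlap of 1 bp counted as shared. Starts were the 5′ ends of 20145 protein-coding genes, and the code recovered 200 of 200 planted peaks in a simulated list. The planted peaks were centered close to a start, so all fell in the window by design. This checks the code only, not calls at the window edge or at other starts. Uniqueness was measured as the share of 31-base words that GRCh37 holds more than once. The first 2649520 bases of Y are masked in that file, and the authors' 2 allowed mismatches are not modeled.

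The genes and lists were chosen with earlier results of these data known. All 10 receptors are named, with the genes nearest to their peaks and up to 8 genes per other list whose state differs between the lines, in list order. Alternatives changed the window, the start, the peak width and the way a peak was joined to a gene. Some genes of the other lists are not reported here by name.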

Additional observations from a re-analysis of the deposited data

How the results depend on the processing

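The lists hold 1 sample per line and antibody, so no error between samples can be given. No paired analysis was possible because each group holds 1 sample. A stricter threshold of the peak caller was not run, since the lists give no p-values. Of 108 values recomputed under alternatives, 90 stayed within 1.5 times. Requiring the peak center inside the window moved most of the others. It left 2 of the 10 receptors marked in RS4;11 (2 in that line only) and 1 in THP-1 (1 in that line only), since the centers of the CD14, ITGAM and FCGR2A peaks, and of the THP-1 peak of CD33, lie more than 500 bp inside the gene. Under the same setting the myeloid list fell to 8 in THP-1, the B-lineage list to 3 in RS4;11, the partners to 8 and 7 and the housekeeping genes to 3 and 6 (RS4;11 and THP-1), and the shares of all genes were 33.0% and 37.0%. The B-lineage counts in RS4;11 and THP-1 were 7 and 4, but 7 and 9 with 5000 bp to each side, 8 and 10 with any transcript start and 6 and 9 with the MANE Select start (the last added after the data were seen), so the line with more marked genes was the other one in these. Genes of other tissues in RS4;11 numbered 2 with 5000 bp or any transcript start and 0 with peaks of at least 500 bp. With the nearest start taken over all annotated genes, 4 pairings in RS4;11 and 9 in THP-1 were closest to the receptor gene itself. CD93 was marked in RS4;11 only and ITGAX in THP-1 only in each of the 6 alternatives for the start.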
